A study of Homo sapiens with 4 samples.

Results

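Chemokines are small secreted proteins that steer leukocytes, and epithelial cells of the colon make a limited set of them. The genes described here are the 10 chemokines CXCL1, CXCL2, CXCL3, CXCL8, CXCL10, CXCL11, CXCL16, CCL20, CCL15 and CX3CL1, chosen by name as ligands that gut epithelium is known to express. Earlier results of these data were known when the choice was made. All 10 were found among the 27685 genes of the RNA-seq tables, after the reads of each gene's transcripts were summed. The cells were HT-29, an established human colon cancer line with epithelial features, which received no treatment and stably expressed either a control vector (control, genotype WT) or human TRIM40 with an N-terminal Myc tag (Myc-TRIM40). TRIM40 is a RING-type E3 ubiquitin ligase of the tripartite motif family. The gene was carried in a retroviral pMSCV vector, and whether each line was a clone or a pool is not given in the sources used here. Each of 2 independent experiments gave 1 control and 1 Myc-TRIM40 library, so there were 2 libraries per condition and 4 in all.

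The members act on different receptors. CXCL1, CXCL2, CXCL3 and CXCL8 carry the ELR motif and draw neutrophils through CXCR1 and CXCR2, and their genes are textbook targets of NF-kappaB downstream of IL-1 and TNF. CXCL10 and CXCL11 are interferon-induced ligands of CXCR3 on activated T cells. CCL20 draws dendritic cells and lymphocytes through CCR6, CCL15 acts through CCR1, and CXCL16 and CX3CL1 are made as membrane-anchored proteins that ADAM proteases can release.

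Library depth ran from 60954602 to 67424698 reads. TRIM40 itself had 0 reads in both control libraries, and with Myc-TRIM40 its count was 272646 in experiment 1 and 110665 in experiment 2. All 10 epithelial markers were detected, 9 of them at 1 FPKM or more in every library, whereas 3 of the 6 leukocyte markers, CD3E and CSF1R among them, had 0 reads throughout and PTPRC had at most 4. CD14 had 148 and 243 reads in control and Myc-TRIM40 of experiment 1 and 297 and 219 in experiment 2, and ITGAM had 198 and 390, then 106 and 118. The part of these markers in the members' ratios was not tested. The summed level of the 6 leukocyte markers lay between 2.11 and 3.67 FPKM, against 7152 to 9919 FPKM for the epithelial markers. FPKM, a fragment count corrected for transcript length and library size, was the only scale used to compare levels between genes.

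The start regions of the 6 CXC genes that lie together on chromosome 4 are shown first, because a match to GGAANTTCC, a core form of the NF-kappaB site that reads alike on both strands, was found in each. The windows come from RefSeq promoters on build GRCh38.p14, each 300 bases from 250 before to 50 after a gene's start, and 8 of the 10 members had such an entry (CXCL16 and CX3CL1 did not). Capitals mark the match, and each sequence is written 5′ to 3′ on the strand of its gene.
CXCL8, chr4:73740468-73740497, plus strand: tgcaaatcgtGGAATTTCCtctgacataat
CXCL1, chr4:73869305-73869334, plus strand: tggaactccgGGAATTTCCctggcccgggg
CXCL3, chr4:74038748-74038777, minus strand: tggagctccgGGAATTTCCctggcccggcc
CXCL2, chr4:74099253-74099282, minus strand: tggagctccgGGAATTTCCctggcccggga
CXCL10, chr4:76023654-76023683, minus strand: aggagcagagGGAAATTCCgtaacttggag
CXCL11, chr4:76036126-76036155, minus strand: actcaaagagGGAAATTCCtgtgccataaa

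The match lay from 91 to 83 bases before the start of CXCL8, 78 to 70 before that of CXCL1 and of CXCL3, 77 to 69 before that of CXCL2, 75 to 67 before that of CXCL11 and 176 to 168 before that of CXCL10. These letters occurred in 6 of the 8 member promoters and in 0.965% of all 35116 promoters. The interferon-response-type motif, which is GAAA, then 2 bases of any kind, then GAAA, was searched on both strands. It was present in CXCL10 alone among the members and in 3.57% of all promoters. It is shown, again with the match in capitals, because CXCL10 had the largest ratio described below, and it lay from 221 to 212 bases before the start.
CXCL10, chr4:76023699-76023728, minus strand: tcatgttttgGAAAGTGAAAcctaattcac

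The AP-1-type motif TGANTCA was found in CXCL8 and CXCL11, and in 7.71% of all promoters. The windows of CCL20 and CCL15 held none of the 3 motifs. A match of letters is a description of the sequence, and no binding was measured in these samples.

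Across the 4 libraries the members spanned a wide range of levels. CCL15 had the highest mean over the 4 libraries, 31.6 FPKM, followed by CXCL16 at 9.84 FPKM. CXCL8 (3.32 FPKM), CXCL1 (2.70 FPKM) and CCL20 (2.20 FPKM) came next, and CXCL10, CX3CL1, CXCL3, CXCL2 and CXCL11 followed from 1.39 down to 0.45 FPKM. CCL15 lay above CXCL16 in all 4 libraries and CXCL16 above every remaining member. Below these, neighbours in the order overlapped: CXCL8, CXCL1 and CCL20 changed places between libraries, and CXCL10 stood below CXCL3 in both control libraries and above it in the Myc-TRIM40 library of experiment 1. CCL15 alone supplied 57.7% and 34.5% of the members' summed FPKM in the control and Myc-TRIM40 libraries of experiment 1, and 73.2% and 62.3% in experiment 2.

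**Figure D1:**
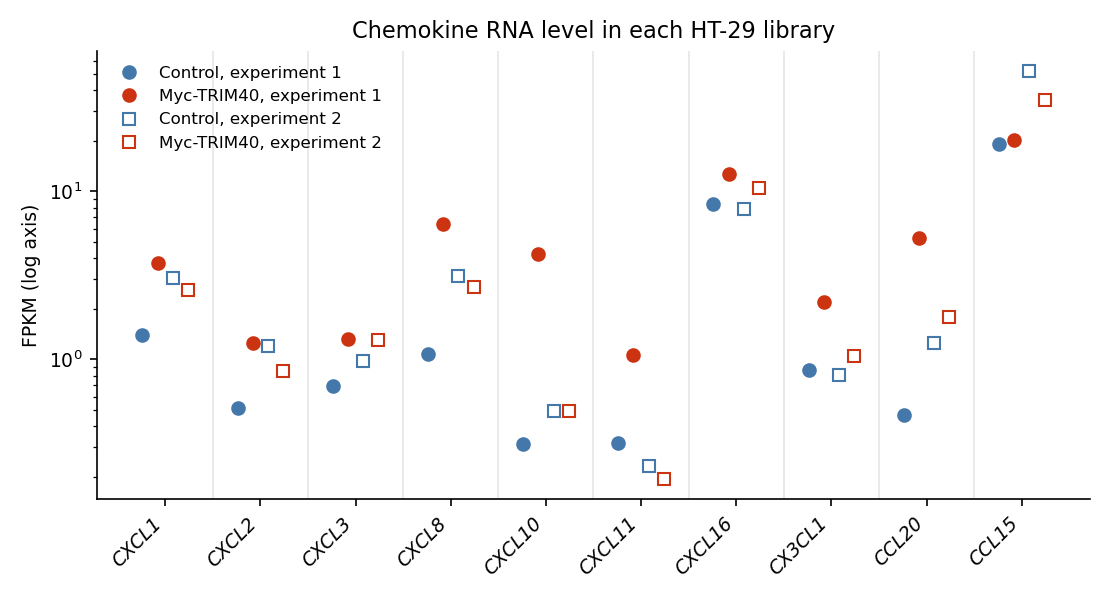
Level of each chemokine in FPKM (log axis) in the 4 HT-29 libraries, with blue for control, red for Myc-TRIM40, filled circles for experiment 1 and open squares for experiment 2. CCL15 and CXCL16 sit above the other 8 genes, and for CXCL10 the Myc-TRIM40 library of experiment 1, at 4.24 FPKM, stands apart from the other 3, at 0.32 to 0.49 FPKM.

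The comparison of Myc-TRIM40 with control asked how a raised level of TRIM40 went with chemokine mRNA, and the experiments gave different answers. On reads scaled for library size, all 10 members had a ratio above 1 in experiment 1, led by CXCL10 at 13.1-fold, CCL20 at 10.9-fold and CXCL8 at 5.76-fold. In experiment 2 the ratio was above 1 for CXCL3, CXCL16, CCL20 and CX3CL1, none of them past 1.5-fold, and below 1 for the other 6. At least 1.5-fold higher were 8 members in experiment 1, against 9.69% of the genes tested, and 0 in experiment 2, against 14.6%. In experiment 2 the members CXCL2 and CCL15 were at least 1.5-fold lower, against 9.9% of the genes tested. These counts on scaled reads were added after the data were seen. On the planned ratio of FPKM + 1, the members at least 1.5-fold higher were 6 (against 2.78%) in experiment 1 and 0 (against 8.54%) in experiment 2. No member passed edgeR's quasi-likelihood test over both experiments, in which 0.0605% of the 14868 genes tested were called. All 10 members had more than 3 reads in every library and passed the filter on low counts, although CXCL2, CXCL3, CXCL10, CXCL11 and CCL20 had at most 100 reads in at least 3 libraries. These are bulk samples, in which fewer cells expressing a gene and less RNA per cell cannot be told apart.

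Ratios within an experiment are of reads scaled to library size with TMM factors (a correction for the makeup of each library), with an exact 95% interval that covers counting error only. CXCL8, also called interleukin-8 and the main human neutrophil attractant, stood at 1.07 FPKM (115 reads) in control and 6.36 FPKM (680 reads) in Myc-TRIM40 in experiment 1, and at 3.15 FPKM (374 reads) and 2.69 FPKM (295 reads) in experiment 2. The Myc-TRIM40 library was the higher one in experiment 1 and the lower one in experiment 2, and the groups overlapped. The ratios were 5.76 (4.72 to 7.08) and 0.78 (0.67 to 0.91).

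CXCL1, the first of the growth-related oncogene chemokines, had 1.40 FPKM (104 reads) in control and 3.76 FPKM (277 reads) in Myc-TRIM40 in experiment 1, and 3.07 FPKM (251 reads) and 2.59 FPKM (195 reads) in experiment 2. On reads summed over its transcripts the pattern was that of CXCL8, with ratios of 2.59 (2.06 to 3.28) and 0.77 (0.64 to 0.93). In experiment 2 the non-coding transcript of CXCL1 had 69 and 5 reads and the coding one 182 and 190. CXCL2, a close paralog, had 39 and 95 reads in experiment 1 and 100 and 66 in experiment 2, for ratios of 2.37 (1.62 to 3.54) and 0.65 (0.47 to 0.90). CXCL3 differed from these in that its groups did not overlap, with 51 and 78 reads in the control libraries and 97 reads in each Myc-TRIM40 library. Its ratio was 1.85 (1.31 to 2.65) in experiment 1 and 1.23 (0.91 to 1.68) in experiment 2, where the interval included 1. CXCL1, CXCL2 and CXCL3 are similar enough in sequence that reads may be split between them, so their separate counts are uncertain. Summed, the ratios were 2.35 and 0.83.

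CXCL10 showed the widest gap between the experiments, 3.84 on the log2 scale, ahead of CCL20 (3.04), CXCL8 (2.88) and the other CXCR3 ligand, CXCL11 (2.09). CXCL10, induced by interferon in many cell types, had 24 reads (0.32 FPKM) in control and 324 reads (4.24 FPKM) in Myc-TRIM40 in experiment 1, and 42 reads (0.49 FPKM) and 39 reads (0.49 FPKM) in experiment 2. A single library, Myc-TRIM40 of experiment 1, was high and the other 3 were close together. The ratio was 13.1 (8.68 to 20.8) in experiment 1 and 0.92 (0.58 to 1.46) in experiment 2. CXCL11 followed the same order, with 32 and 107 reads in experiment 1 and 26 and 20 in experiment 2, and ratios of 3.26 (2.18 to 5.00) and 0.76 (0.40 to 1.42). A gene on the opposite strand, ART3, overlaps both and had at most 8 reads in any library.

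CCL20 was the member with the largest log2 fold change in the edgeR fit over both experiments. It had 0.46 FPKM (25 reads) in control and 5.30 FPKM (281 reads) in Myc-TRIM40 in experiment 1, and 1.24 FPKM (73 reads) and 1.79 FPKM (98 reads) in experiment 2. Both Myc-TRIM40 libraries lay above both control libraries, with ratios of 10.9 (7.26 to 17.2) and 1.33 (0.97 to 1.83). The interval for experiment 2 included 1.

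CX3CL1, or fractalkine, is tethered to the cell by a mucin stalk. It had 180 reads (0.87 FPKM) in control and 457 reads (2.19 FPKM) in Myc-TRIM40 in experiment 1, and 186 reads (0.81 FPKM) and 222 reads (1.04 FPKM) in experiment 2. The control libraries were nearly equal and both Myc-TRIM40 libraries were higher, at ratios of 2.47 (2.08 to 2.95) and 1.18 (0.97 to 1.45). CXCL16, a transmembrane ligand of CXCR6, had 8.36 and 12.7 FPKM (1174 and 1717 reads) in experiment 1, and 7.87 and 10.4 FPKM (1196 and 1518 reads) in experiment 2. With TMM scaling it was the only member whose counting interval lay above 1 in both experiments, with ratios of 1.42 (1.32 to 1.54) and 1.26 (1.17 to 1.36). The interval lay above 1 for 27.8% of the genes tested in experiment 1 and for 37.4% in experiment 2. The share above 1 in both was not computed. CCL20, with fewer reads and wider intervals, had larger ratios in both experiments (10.9 and 1.33). Scaled by depth alone, the intervals of experiment 2 also lay above 1 for CCL20 (1.06 to 1.99) and CX3CL1 (1.05 to 1.57), and that of CXCL1 (0.69 to 1.01) included 1. MED11 overlaps CXCL16 on the opposite strand and had 719 and 603 reads in experiment 1 and 1031 and 650 in experiment 2, so that its counts were lower with Myc-TRIM40 where those of CXCL16 were higher.

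CCL15, the member with the highest FPKM in every library, did not share this direction. Its level was 19.1 FPKM (1289 reads) in control and 20.1 FPKM (1364 reads) in Myc-TRIM40 in experiment 1, and 52.1 FPKM (3903 reads) and 35.3 FPKM (2444 reads) in experiment 2. The experiments were further apart than the conditions, and the groups overlapped. The ratio was 1.03 (0.95 to 1.11) in experiment 1 and 0.62 (0.59 to 0.65) in experiment 2. On the same strand CCL15 overlaps the readthrough gene CCL15-CCL14, which had 459 and 643 reads in experiment 1 and 457 and 296 in experiment 2. CCL15 took 73.7% (exact 95% interval 71.6 to 75.8) and 68.0% (65.9 to 70.0) of their joint reads in experiment 1, and 89.5% (88.6 to 90.4) and 89.2% (88.0 to 90.3) in experiment 2. Added together, the pair had ratios of 1.12 and 0.62. The 3 genes whose profile over the 4 libraries was nearest to CCL15, by Euclidean distance of centred log2 CPM (depth-scaled counts), were ELOC (0.058), LOC101927752 (0.060) and TPRKB (0.062).

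**Figure D2:**
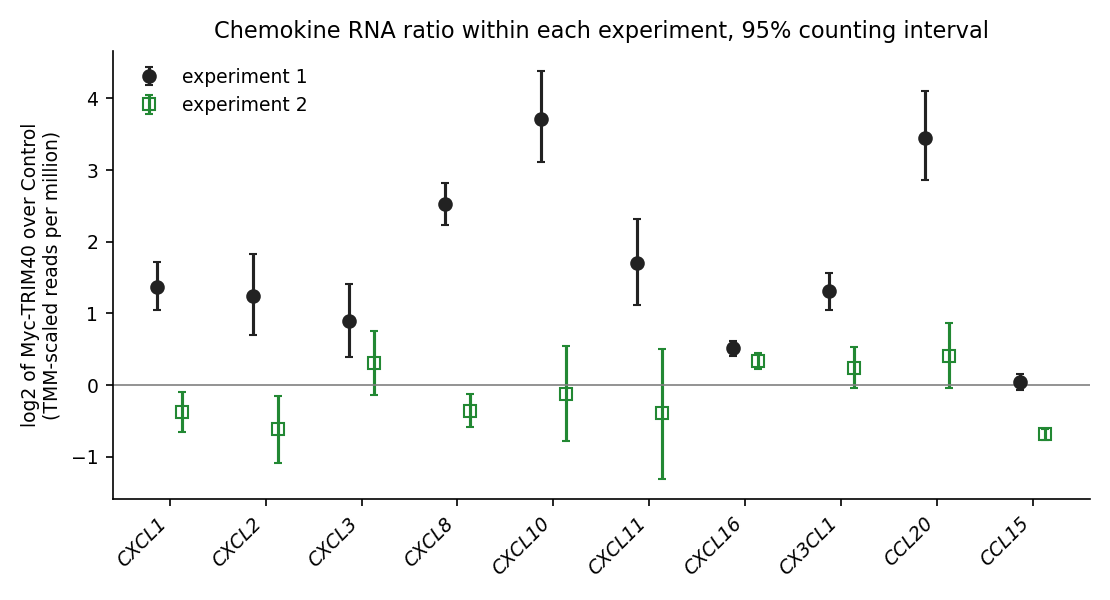
Log2 ratio of Myc-TRIM40 to control for each chemokine, on TMM-scaled reads, with black circles for experiment 1, green squares for experiment 2 and bars for exact 95% counting intervals. Experiment 1 reaches 3.72 for CXCL10 and 3.45 for CCL20, and the points of experiment 2 lie between -0.69 and 0.41.

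In experiment 1 the counting interval lay above 1 for 9 of the 10 members, CCL15 being the exception, and for 27.8% of the genes tested. In experiment 2 it lay above 1 for CXCL16 alone, against 37.4% of the genes tested, and below 1 for CXCL1, CXCL2, CXCL8 and CCL15, against 34.4%. For CXCL1 the interval is that of its summed transcripts, and the coding transcript alone had 182 and 190 reads. In FPKM, both Myc-TRIM40 libraries lay above both control libraries for 4 members (CXCL3, CXCL16, CCL20 and CX3CL1), against 15.2% of the genes tested. On the ratio of FPKM + 1, which understates changes of genes with low levels, 6 members were at least 1.5-fold higher in experiment 1 (CXCL1, CXCL8, CXCL10, CXCL11, CCL20 and CX3CL1), where 2.78% of the genes tested were. In experiment 2 the number was 0, where 8.54% of the genes tested were at least 1.5-fold higher, and no member was past 1.5-fold the same way in both experiments, against 0.457% of the genes tested that were higher in both and 0.0874% that were lower in both. By the position of its ratio among all genes tested, CXCL10 had 0.229% of genes above it in experiment 1 and 61.2% in experiment 2. For CCL20 the shares were 0.282% and 22.7%, and for CXCL8 0.706% and 77.5%.

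The sign of several members in experiment 2 depended on the scale. Over the genes tested, the median log2 ratio of experiment 2 was 0.03 with TMM scaling, 0.15 in FPKM and 0.38 in TPM, a scale on which CXCL8 (0.00) and CXCL10 (0.22) also came out above 0. Relative to the median of all genes, the same number of members, 4 of 10, stood above it in experiment 2 on every scale used, and all 10 did in experiment 1.

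The edgeR fit put a p-value on these differences, with the experiment as a block. The standard error (SE) was derived here, as the size of the log2 fold change divided by the square root of the test's F statistic. The log2 fold change of CCL20 was 1.87 ± 0.67 (SE), with an unadjusted p of 0.023, and that of CX3CL1 was 0.78 ± 0.32 with an unadjusted p of 0.040. Both had an adjusted p of 0.888 by Benjamini-Hochberg over all genes tested. CXCL10 (1.83 ± 0.84), CXCL8 (1.06 ± 0.60), CXCL11 (0.73 ± 0.61), CXCL3 (0.59 ± 0.39), CXCL1 (0.49 ± 0.42), CXCL16 (0.42 ± 0.21) and CXCL2 (0.30 ± 0.51) were above 0 on the log2 scale, and CCL15 (-0.32 ± 0.25) was below. Their adjusted p-values lay between 0.888 and 0.934 by edgeR. DESeq2 likewise called 0 members, against 0.346% of its genes, with 2 at an unadjusted p under 0.05, against 3.01%. On log2(FPKM + 1) limma called 0 of 8, with 4 at an unadjusted p under 0.05, against 4.6% of its genes. Without the Myc-TRIM40 library of experiment 2, in a fit with no block, edgeR called 2 members, CXCL10 and CCL20, and 0.757% of the genes tested in that fit. The log2 fold changes of CXCL1, CXCL2, CXCL11 and CCL15 changed sign in at least 1 fit that left out a library, with values of -0.12 (CXCL1) and -0.35 (CXCL2) without the control of experiment 1, -0.58 (CXCL11) without Myc-TRIM40 of experiment 1 and 0.53 (CCL15) without the control of experiment 2. The edgeR count of 2 members higher at an unadjusted p under 0.05 stands beside 3.41% of all genes tested. The median log2 fold change was 0.66 over the members and 0.04 over all genes tested.

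The experiments differed in both conditions. The control library of experiment 2 held more CXCL8 than that of experiment 1 by 3.12-fold, more CCL15 by 2.90-fold, more CCL20 by 2.80-fold, more CXCL2 by 2.46-fold and more CXCL1 by 2.31-fold. CX3CL1 and CXCL16 were nearly level between the controls, at 0.99 and 0.98. Of the genes tested, 1.32% had a larger gap between the controls than CXCL8 and 3.9% a larger one than CXCL1. The median log2 gap of all genes tested was 0.58 for transcripts under 1000 bases, the class of CCL20. It was 0.41 from 1000 to under 2000 bases (CXCL1, CXCL2, CXCL8 and CCL15) and 0.01 from 2000 to under 4000 bases (CX3CL1 and CXCL16). The part of length in the members' gaps was not tested. Between the Myc-TRIM40 libraries, that of experiment 1 held more CXCL10 by 8.52-fold, more CXCL11 by 5.49-fold and more CCL20 by 2.94-fold. For CXCL1 and CXCL2 the gap between the controls was close to the ratio within experiment 1, for CXCL8 and CCL20 it was smaller, and the CXCR3 ligands differed mainly between the Myc-TRIM40 libraries. The Myc-TRIM40 library of experiment 1 also had the higher TRIM40 count, and the part of this in the result was not tested.

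The ratios of experiment 2 carried a trend with transcript length. Among all genes tested, the median log2 ratio of Myc-TRIM40 to control in experiment 2 was -0.55 for transcripts under 1000 bases, -0.35 from 1000 to under 2000 bases, 0.00 from 2000 to under 4000 bases and 0.39 from 4000 bases. In experiment 1 the corresponding medians ran from -0.06 to 0.02. For the control of experiment 2 over that of experiment 1 they were 0.58, 0.41, 0.01 and -0.48. The control libraries thus differed by length in the opposite direction to the ratios of experiment 2, and the source of the trend was not tested. Of the members, 1 (CCL20) fell in the shortest class, 7 in the next and 2 (CXCL16 and CX3CL1) in the third. Set against the median of its own length class, CCL20 stood 0.96 higher on the log2 scale in experiment 2 and CXCL3 0.65 higher. CXCL16 (0.33), CX3CL1 (0.25) and CXCL10 (0.23) were also above theirs. CXCL1 (-0.03), CXCL8 (-0.01) and CXCL11 (-0.04) lay close to their class, and CCL15 (-0.34) and CXCL2 (-0.26) lay below it. With this centring 5 members were above and 5 below their class in experiment 2, and all 10 were above in experiment 1. With the trend taken out of each library, an edgeR fit chosen after the data were seen called 0 members and gave log2 fold changes of 2.03 for CCL20 (unadjusted p = 0.045), 0.40 for CXCL16 (unadjusted p = 0.027) and 0.65 for CX3CL1 (unadjusted p = 0.12).

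**Figure D3:**
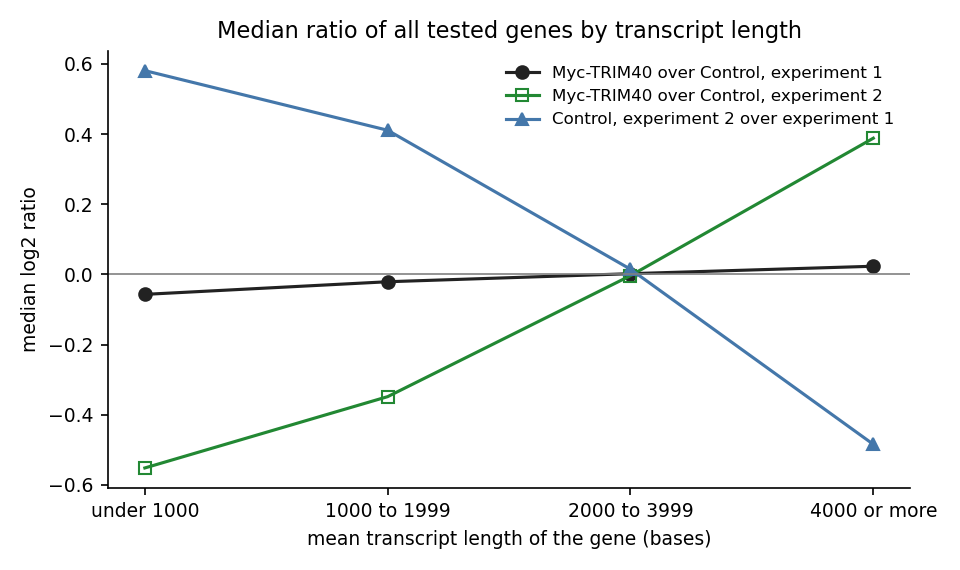
Median log2 ratio of all genes tested in 4 classes of mean transcript length in bases, for Myc-TRIM40 over control in experiment 1 (black circles) and experiment 2 (green squares) and for the control of experiment 2 over that of experiment 1 (blue triangles). The green line runs from -0.55 to 0.39, the blue line from 0.58 to -0.48, and the black line stays between -0.06 and 0.02.

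Several members have more than 1 transcript in the files, and the share of reads given to each moved between libraries. The RefSeq non-coding transcript of CXCL1 took 0.96% and 1.08% of the gene's reads in the control and Myc-TRIM40 libraries of experiment 1, and 27.5% and 2.56% in those of experiment 2. Of the coding transcript alone there were 103 and 274 reads in experiment 1 and 182 and 190 in experiment 2. The control library of experiment 2 was therefore the one in which the forms of CXCL1 were divided differently. CCL20 has a pair of coding forms, and the one numbered NM_001130046 took 48.0%, 47.7% and 54.8% of the reads in the first 3 libraries. In Myc-TRIM40 of experiment 2 it had 1 of 98 reads (1.02%) and 0.0006 FPKM, against 1.78 FPKM for the other form. The main CXCL16 transcript took between 87.0% and 95.2% in every library.

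**Figure D4:**
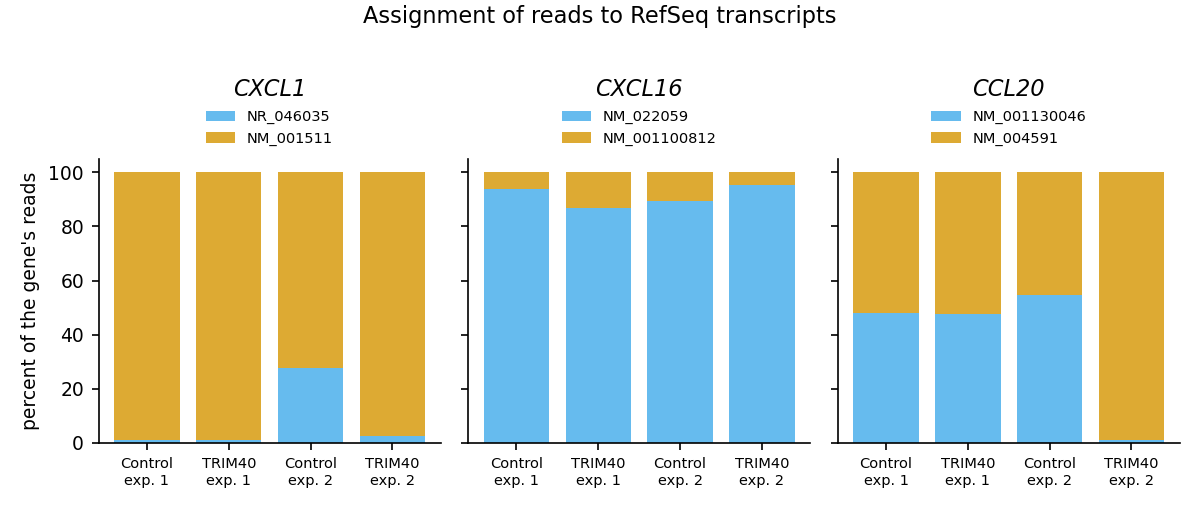
Share of the reads of CXCL1, CXCL16 and CCL20 given to each RefSeq transcript, in percent, as stacked bars for the 4 libraries. The non-coding form of CXCL1 (NR_046035) reaches 27.5% in the control library of experiment 2 and stays at or below 2.56% in the other 3, and NM_001130046 of CCL20 takes 1.02% in Myc-TRIM40 of experiment 2.

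Most of the remaining chemokine ligands were not detected. Of 38 further ligands, 25 had 0 reads in every library, 6 were tested and 0 were called by edgeR or DESeq2, with 0 at an unadjusted p under 0.05 by either. MIF, a cytokine that also acts on chemokine receptors, was the most abundant, with 20761 and 19349 reads in experiment 1 and 28296 and 17406 in experiment 2 (log2 fold change -0.43, adjusted p = 0.888 by edgeR). CCL28, a mucosal epithelial ligand, had 153 and 289 reads, then 342 and 380. CCL5, a T cell attractant that was picked after its values were seen, resembled CXCL10, with 26 and 274 reads in experiment 1 and 33 and 27 in experiment 2.

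Of the 23 chemokine receptors, 9 had 0 reads in every library, 5 were tested and 0 were called by edgeR or DESeq2, with 0 at an unadjusted p under 0.05 by either. CXCR4 was the most abundant, with 3675 and 3427 reads in experiment 1 and 2823 and 2346 in experiment 2, and CCRL2, a non-signalling receptor, followed with between 249 and 396 reads. Receptors for the members themselves were scarce: CXCR2, for the neutrophil-directed ligands, had at most 6 reads, CCR6 had 7 to 38 and CXCR3 had 51 to 95. These 3 were named after their values were seen.

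The genes of the inducing pathways were read from the same fit. Their lists were chosen with earlier results of these data known, so the counts below are descriptions and not tests. Among 34 genes on the NF-kappaB side, 30 were tested and 0 were called by edgeR (1, BIRC3, by DESeq2), with 7 higher at an unadjusted p under 0.05, against 3.41% of all genes tested, and a median log2 fold change of 0.36. The most abundant by mean FPKM were LCN2, an antibacterial lipocalin, and TNIP1, a partner of A20, with log2 fold changes of 0.00 and 0.26. TNFAIP3, which encodes the feedback inhibitor A20, had 100 and 640 reads in experiment 1 and 72 and 140 in experiment 2. BIRC3, an inhibitor of apoptosis and another feedback target, had 221 and 1308 reads in experiment 1 and 353 and 651 in experiment 2, and both, which were picked after their values were seen, had the Myc-TRIM40 library higher in each experiment (adjusted p = 0.469 and 0.444 by edgeR).

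On the interferon side, 23 of 24 genes were tested and 0 were called by edgeR, with adjusted p-values from 0.0795 to 0.903. At an unadjusted p under 0.05 by edgeR 19 were higher, against 3.41% of all genes tested. The paper had already reported changed interferon-stimulated genes from the same RNA-seq, so this count is no independent support. DESeq2 called 6, against 0.346% of its genes, and edgeR without the Myc-TRIM40 library of experiment 2 called 19, against 0.757%. The median log2 ratio over those tested was 2.85 in experiment 1 and 0.63 in experiment 2. At least 1.5-fold higher on FPKM + 1 in both experiments were 10 genes, against 0.457% of all genes tested. Among them were IFIT1, IFIT3, MX1, OAS1, OAS2, IFI44, DDX58 and IFIH1. IFIT1, which binds foreign RNA, had 558 and 9442 reads in experiment 1 and 611 and 1427 in experiment 2. The most abundant, IFI27 and ISG15, parted in experiment 2: IFI27 had 5649 and 7494 reads, and ISG15 had 5670 and 4717. Genes of this list were not set against the medians of their length classes, which ran from -0.55 to 0.39 in experiment 2. In experiment 2 the TMM-scaled ratio was above 1 for 21 of the 23 tested genes, ISG15 not among them, against 51.4% of all genes tested. The ratios of CXCL10 and CXCL11 were below 1 with intervals that included 1. That of CXCL10 depended on the scale, with a log2 ratio of 0.00 by depth alone and 0.22 in TPM. Against the median of their length class, CXCL10 stood at 0.23 and CXCL11 at -0.04 on the log2 scale.

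For the membrane-anchored members, ADAM10 had 8722 and 8988 reads in experiment 1 and 8215 and 10046 in experiment 2, and ADAM17 had 2965 and 3295, then 2954 and 3262. These sheddases, named after their values were seen, had log2 fold changes of 0.14 and 0.12. Of the 9 tested genes of secretion and shedding edgeR called 0, with 0 at an unadjusted p under 0.05, and the most abundant, SDC1 and CTSC, had log2 fold changes of -0.05 and -0.14.

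**Figure D5:**
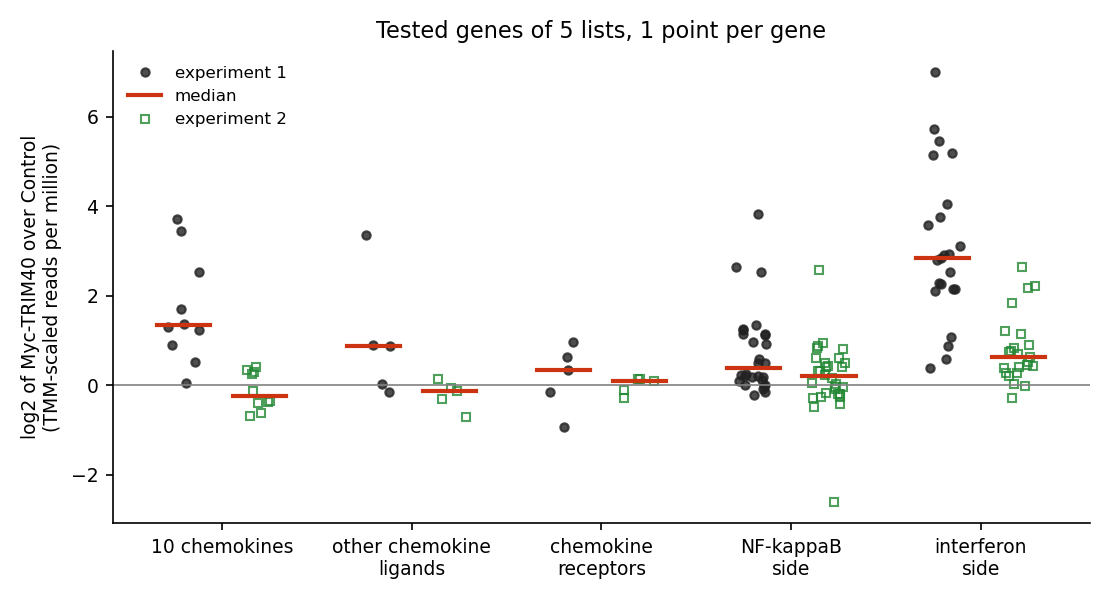
Log2 ratio of Myc-TRIM40 to control, on TMM-scaled reads, for the tested genes of 5 lists, with 1 point per gene, black circles for experiment 1, green squares for experiment 2 and red bars for medians. Genes with 0 reads in a library of the pair are not drawn. The members' median is 1.34 in experiment 1 and -0.24 in experiment 2, and that of the interferon side is 2.85 and 0.63.

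In the coordinates of the submitters' build hg19, all 6 CXC genes with a printed start region lie on chromosome 4. CXCL8 spans 74606223 to 74609433, CXCL1 74735109 to 74737019, CXCL3 74902312 to 74904490, CXCL2 74962754 to 74964997, CXCL10 76942269 to 76944689 and CXCL11 76954840 to 76957350. CXCL16 (4636824 to 4643223) and CCL15 (34324618 to 34329084) lie on chromosome 17, CCL20 (228678558 to 228682280) on chromosome 2 and CX3CL1 (57406373 to 57418960) on chromosome 16. Neighbours did not always share a pattern: CXCL3 lies between CXCL1 and CXCL2, and in experiment 2 its ratio was 1.23 where theirs were 0.77 and 0.65.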

How the data were processed

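RNA was measured in 4 libraries of HT-29 cells made with a stranded TruSeq mRNA kit. For each RefSeq transcript the authors deposited an estimated count (whole numbers) and an FPKM. Count and FPKM did not always match at the lowest counts, where 1 read could stand beside an FPKM near 0. For experiment 2 the authors also deposited TPM, and for experiment 1 TPM was rescaled here from FPKM. The other deposited values used were transcript lengths in bases. The submitters' processing notes name HISAT2 2.1.0, StringTie 1.3.4d and hg19.

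The 63714 transcripts were summed by gene ID to 27685 genes. The test was edgeR 4.0.16 (glmQLFit and glmQLFTest, R 4.3.3) with TMM, filterByExpr and Benjamini-Hochberg adjustment over 14868 genes, called at an adjusted p under 0.05, with the experiment as a block. Pairing comes from the replicate numbers of the labels and from the files, which each hold 1 library per condition, and libraries of 1 experiment deviated together (correlation 0.45). With 1 residual degree of freedom the fit leaned on the spread of all genes. An exact permutation test of 2 against 2 libraries that ignores the pairing cannot give a p below 0.333, and keeping the pairing leaves fewer arrangements. Nothing says that the experiments began from separately derived lines, so p-values measure the spread between these libraries.

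Ratios within an experiment have 1 library a side, and their exact conditional binomial 95% intervals cover counting error only, since reads are not independent molecules. Depth was 60954602 to 67424698 reads, and 3 reads was taken as the floor. The planned fold counts used FPKM + 1, and those on TMM-scaled reads were added later. Members and lists were chosen with earlier results of these data known. Named were the members, TRIM40, overlapping genes, the 3 nearest to CCL15, and of each list the genes called, past 1.5-fold in both experiments or among the 2 highest by mean FPKM; the others named are marked as picked after their values were seen, and some results that this rule covers are not reported here. The alternatives were no block, DESeq2 1.42.0, upper-quartile scaling, no filter, limma 3.58.1 on log2(FPKM + 1), each library left out, CXCL1 to CXCL3 summed and overlapping genes summed. The fold count was repeated in TPM, with median centring, with 0.1 as the pseudocount, at 2-fold, on genes whose mean FPKM reached 1 and in each experiment alone. Removal of the length trend and the TMM ratios were added after the data were seen. The fit was tested on simulated counts. Python 3.11.15, numpy 2.4.6, pandas 2.3.3 and scipy 1.17.1 were used for the rest.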

Additional observations from a re-analysis of the deposited data

How the results depend on the processing

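The experiment number was a block in the test. Without the replicate block, 0 members were called and 1 had an unadjusted p under 0.05, and no call for the members or the other lists changed. Leaving out 1 library was possible only without the block, and an arm left with 1 library was assumed to vary like the other. The members called then ranged from 0 to 2, the 2 being CXCL10 (adjusted p = 0.00058) and CCL20 (adjusted p = 0.037) without the Myc-TRIM40 library of experiment 2, by edgeR. In the same fits the other ligands called ranged from 0 to 1 (CCL5), the NF-kappaB side from 0 to 3 and the interferon side from 0 to 19. DESeq2 called 1 gene of the NF-kappaB side (BIRC3) and 6 of the interferon side. Over the fits that left out a library, the log2 fold change of CXCL1 ranged from -0.12 to 1.14, that of CXCL2 from -0.35 to 1.01, that of CXCL11 from -0.58 to 1.87 and that of CCL15 from -1.07 to 0.53. The negative values came without the control library of experiment 1 for CXCL1 and CXCL2 (-0.35), without the Myc-TRIM40 library of experiment 1 for CXCL2 (-0.11) and CXCL11, and the positive one of CCL15 without the control library of experiment 2. Members past 1.5-fold the same way in both experiments numbered 0, and 1 in TPM (CXCL16) and 2 with TMM ratios centred on the length class (CXCL3 and CCL20). No share of all genes was computed for the TPM and length-centred counts, so they cannot be set against a background. On TPM + 1 the median log2 ratio of all genes tested was itself 0.27 in experiment 2. For an experiment alone the members past 1.5-fold ranged from 0 to 6. For all of these the cause was not tested. In the other alternatives, all 75 log2 fold changes of members kept their direction and their side of the threshold. The fits that summed genes left the counts of members outside the sums unchanged, so those values could hardly move. With the length trend taken out, a fit chosen after the data were seen, 0 members were called. The number of libraries, 2 per condition, and counts as low as 20 reads (CXCL11) limit the precision of these values.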
